A study of Mus musculus with 7 samples.

Results

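Genes of striated skeletal muscle were measured in RNA from mouse bone marrow, a tissue that holds no muscle fibres of its own. The 35 genes were taken by name: 4 myosin heavy chains, 4 myosin light chains, 6 troponins, 2 myosin-binding proteins C, 3 other thin filament genes, 6 genes of the Z-disc and elastic scaffold, 4 genes of calcium handling and 6 genes of energy supply. All 35 were found among the 35498 genes of the table, and all 35 were among the 14238 genes that had enough reads to be tested. The rule itself used names and no measured value, but the names were chosen with earlier results of these data known. Of the 35, 12 are typical of fast fibres, 7 are typical of slow fibres and 16 are used in both kinds of fibre. Where in the dissected material their RNA came from was not tested.

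In a muscle fibre, myosin heavy and light chains form the thick filament, which pulls on a thin filament of actin, tropomyosin and troponin. Calcium released from the sarcoplasmic reticulum binds troponin C and switches the thin filament on, and a calcium pump then takes the calcium up again. Slow fibres and fast fibres use different genes for most of these parts, so the mix of forms tells which kind of fibre an RNA sample holds. Bone marrow lies inside bones to which such muscles attach.

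The marrow came from female mice of 5 to 6 months. There were 3 libraries from Aim2 knock-out mice (KO1 to KO3), which lack the DNA sensor AIM2, and 4 libraries from wild-type mice (WT1 to WT4). The labels give no other allele, no treatment and no strain, and they leave unsaid whether every library is a separate animal, so p-values can speak only of the spread among these 7 libraries, which may be technical. Libraries were strand-specific mRNA libraries with 20300468 to 21099972 estimated reads each, and no pair of libraries of a group differed by as little as sampling noise. Haemoglobin transcripts took 11.3 to 19.9% of the reads. Aim2, the deleted gene, had 157, 47 and 59 reads in KO1 to KO3 and 533 to 601 reads in the WT libraries, with log2 KO over WT at -2.76 (SE 0.38; edgeR quasi-likelihood, adjusted p = 0.0280). Over all genes tested, 92 passed an adjusted p of 0.05, with 68 higher and 24 lower in KO.

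How well short reads can tell the fast and slow forms apart depends on their sequences. Stretches near the coding start of the 4 myosin heavy chain genes are shown for this reason, as 90 bases read 5′ to 3′ from the GENCODE M21 transcripts on GRCm38, from coding base 8 in Myh4, Myh1 and Myh2 and from coding base 5 in Myh7. They lie at chr11:67240631-67240720 (+) for Myh4, chr11:67201889-67201978 (+) for Myh1, chr11:67173123-67173212 (+) for Myh2 and chr14:54992780-54992869 (-) for Myh7. Capitals mark bases that differ from Myh4, the fastest form.
Myh4: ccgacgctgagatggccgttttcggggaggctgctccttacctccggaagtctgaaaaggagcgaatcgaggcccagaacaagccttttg
Myh1: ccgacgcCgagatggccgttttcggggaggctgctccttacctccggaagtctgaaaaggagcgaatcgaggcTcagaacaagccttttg
Myh2: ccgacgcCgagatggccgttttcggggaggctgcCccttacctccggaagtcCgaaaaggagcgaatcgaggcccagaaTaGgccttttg
Myh7: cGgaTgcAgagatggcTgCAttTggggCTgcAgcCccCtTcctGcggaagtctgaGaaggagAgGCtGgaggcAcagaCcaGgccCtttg

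Within this stretch Myh1 differed from Myh4 at 2 bases, Myh2 at 5 and Myh7 at 23. Over the whole coding sequence, Myh4 was identical to Myh1 at 90.1% of aligned bases, to Myh2 at 88.2% and to Myh7 at 77.4%. Of all runs of 31 bases, 23.7% of those of Myh4, 34.8% of Myh1 and 32.7% of Myh2 also occurred in another of the 4 genes, against 1.13% for Myh7. The split of reads among the 3 fast heavy chains is therefore uncertain, while the split between them and Myh7 rests on sequence that is almost all distinct.

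Troponin C shows the clearest case, with one fast and one slow gene whose reads cannot be mixed up. The first 90 coding bases of the fast form Tnnc2 (chr2:164778053-164779665, -) and of the slow form Tnnc1 (chr14:31208355-31210094, +) are given below, and both spans include introns. Capitals mark bases of Tnnc1 that differ from Tnnc2.
Tnnc2: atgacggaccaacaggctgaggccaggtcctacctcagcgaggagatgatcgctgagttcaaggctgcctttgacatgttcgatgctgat
Tnnc1: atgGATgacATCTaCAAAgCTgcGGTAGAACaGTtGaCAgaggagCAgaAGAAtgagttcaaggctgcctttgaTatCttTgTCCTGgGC

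The forms differed at 42 of these 90 bases, were identical at 66.9% of all aligned coding bases and shared 0 runs of 31 bases.

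Promoters were taken from RefSeq on GRCm38.p6, in which 28 of the 35 genes had an entry. Those without one were Actn3, Ampd1, Cox6a2, Neb, Tcap, Tnni2 and Tnnt3. The 250 bases before the start are shown for the 3 genes with an entry that were highest by mean TPM. These are Acta1 at chr8:123894776-123895025 (-), Tnnc2 at chr2:164779735-164779984 (-) and Ckm at chr7:19410844-19411093 (+). Capitals mark matches to the E-box CANNTG, the site bound by MyoD and its relatives, and to the CArG box bound by serum response factor.
Acta1: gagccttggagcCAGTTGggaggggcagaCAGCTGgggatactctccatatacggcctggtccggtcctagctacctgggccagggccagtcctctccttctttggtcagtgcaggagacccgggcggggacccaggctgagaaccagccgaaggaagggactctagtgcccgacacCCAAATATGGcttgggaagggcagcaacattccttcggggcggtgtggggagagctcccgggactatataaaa
Tnnc2: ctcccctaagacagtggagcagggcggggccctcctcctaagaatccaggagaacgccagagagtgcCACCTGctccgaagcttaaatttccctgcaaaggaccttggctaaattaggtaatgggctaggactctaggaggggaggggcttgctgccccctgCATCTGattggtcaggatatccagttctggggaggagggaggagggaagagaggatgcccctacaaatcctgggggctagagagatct
Ckm: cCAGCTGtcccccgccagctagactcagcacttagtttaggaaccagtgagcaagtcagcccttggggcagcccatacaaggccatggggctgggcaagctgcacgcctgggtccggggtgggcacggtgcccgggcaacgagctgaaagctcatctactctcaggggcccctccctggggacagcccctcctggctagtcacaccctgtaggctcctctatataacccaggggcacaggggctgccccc

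The search also covered CAGCTG, which is a special case of CANNTG, and the MEF2 motif, on both strands. Members were counted per gene, over all promoter entries of the gene, and the background per promoter entry. A gene with several entries thus had more chances to match, and the shares are not of like units. CANNTG was found in 24 of 28 member genes and in 66.2% of 32851 promoters. CAGCTG was found in 14 of 28 and in 13.0% of all. The MEF2 motif was found in 4 of 28 (Myh1, Myh4, Pvalb and Ttn) and in 2.92% of all, and the CArG box in 4 of 28 (Acta1, Ldb3, Myh4 and Myl3) and in 1.47% of all. The Acta1 promoter held its CArG box at bases -73 to -64 from the start. These are matches of letters, and no binding was measured. Any part of these motifs in the levels across libraries was not tested.

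The muscle genes together held 3643 reads in KO1, 29362 in KO2 and 232747 in KO3. In the WT libraries they held 46425 (WT1), 83902 (WT2), 46937 (WT3) and 91190 reads (WT4). This was 0.0175% of all reads in KO1, 1.11% in KO3 and between 0.228% and 0.432% in WT. The lowest and the highest library of all 7 were thus both KO libraries, 61.6-fold apart after scaling, with the WT libraries, 1.92-fold apart, between KO2 and KO3. The summed level was 4038 ± 5658 CPM (counts per 1e6 reads after scaling; SD, n = 3) in KO against 3298 ± 1069 (n = 4) in WT, a ratio of 1.22 that is far smaller than the spread within KO. In bulk RNA, fewer muscle cells and less RNA per cell cannot be told apart.

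The order of the KO libraries was the same for nearly every gene. KO1 was lowest, KO2 next and KO3 highest for 34 of 35 genes, the exception being Tnnc1, for which KO2 was lowest with 7 reads against 16 in KO1. Over all 7 libraries, KO3 was highest for 29 genes, all 12 fast genes and all 16 genes of both fibre kinds among them, and WT4 was highest for 6 of 7 slow genes. KO3 exceeded KO1 by a median of 90.3-fold over the 34 genes with more than 3 reads in KO1, from 6.65-fold for Tnnt1 to 543-fold for Mb. The WT libraries differed by a median of 2.42-fold per gene, from 1.705-fold for Tnnc2 to 31.1-fold for Myl3.

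**Figure D1:**
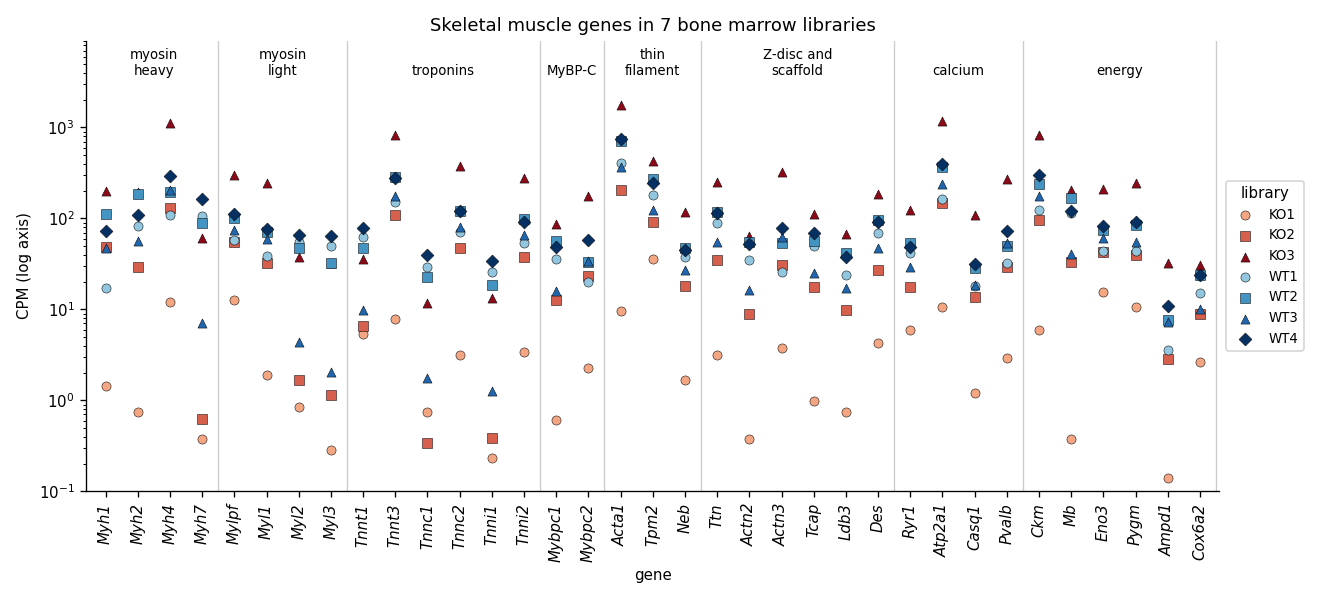
CPM (log axis) of each of the 35 muscle genes in the 3 KO and 4 WT libraries, 1 point per library, with genes grouped by role. KO1 is the lowest point for 34 genes and KO3 the highest for 29, with the WT libraries between them, except for slow genes such as Myh7 and Tnnc1, where WT4 is highest.

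No muscle gene passed the test of KO against WT. In edgeR's quasi-likelihood test 0 of 35 passed an adjusted p of 0.05, against 0.646% of all genes tested (0.478% higher and 0.169% lower in KO), 0 of 35 had an unadjusted p under 0.05, against 11.5% of all genes, and DESeq2 and limma-voom also called 0. The smallest adjusted p was 0.498, for Tnnc1. The KO and WT libraries overlapped for all 35 genes, whereas they did not overlap for 12.9% of all genes. The median log2 fold change was 0.22 over the 35 genes and -0.01 over all genes tested, with 20 genes above 0 and 15 below. The standard errors were wide, with a median of 1.06 on the log2 scale against 0.12 over all genes, so differences of several-fold in either direction lie inside the intervals.

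Both ends of the KO group bore on these values. Without KO3, all 35 log2 fold changes lay below 0 with a median of -1.996, 27 of 35 had an unadjusted p under 0.05, against 13.5% of all genes in that fit, and 0 passed after adjustment, the smallest adjusted p being 0.102 (edgeR). Without KO1, 28 lay above 0 and the median was 0.80, again with 0 past the threshold. The order of the KO libraries was the same for 34 of 35 genes, so the genes counted in these fits are not independent results.

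**Figure D2:**
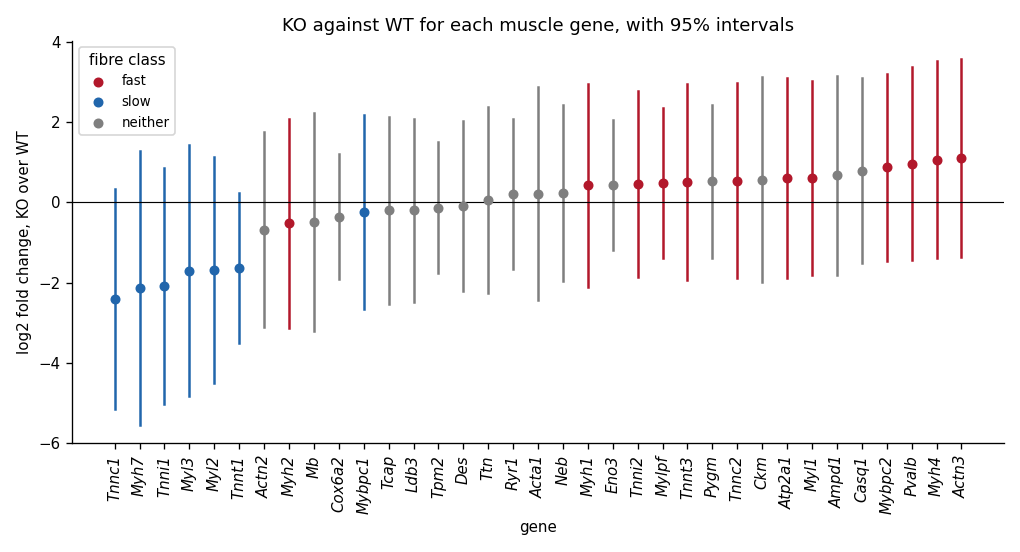
Log2 fold change of KO over WT for each of the 35 genes, ordered by value, with 95% intervals from edgeR's quasi-likelihood fit and colours for the fibre class. All 35 intervals include 0, and 6 of the 7 slow genes form the low end, down to -2.41 for Tnnc1, while 11 of the 12 fast genes lie above 0.

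Among the myosin heavy chains, the motors of the thick filament, Myh4 (type IIb, the fastest form) was the most abundant by mean TPM (46.7; TPM is a level per transcript length). Myh4 had 260, 2695 and 24547 reads in KO1 to KO3 and 2050, 3988, 4251 and 6042 in WT1 to WT4. KO1 lay below and KO3 above every WT library, and log2 KO over WT was 1.06 (SE 1.07; edgeR, adjusted p = 0.768). Myh1 (type IIx) had 31, 1010 and 4445 reads in KO and 320, 2331, 971 and 1518 in WT. Myh2 (type IIa) had 16, 615 and 4308 reads in KO and 1556, 3784, 1151 and 2292 in WT, and was the fast gene with a log2 fold change below 0, at -0.52 (SE 1.14). Both again had KO1 below and KO3 above all WT libraries.

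Myh7, the slow heavy chain, followed another order. It had 8, 13 and 1352 reads in KO1 to KO3 and 2003, 1819, 148 and 3397 in WT1 to WT4. KO1 and KO2 were close to absent, WT3 was more than 10 times below the other WT libraries, and KO3 lay between WT3 and WT2. Its log2 ratio of KO to WT was -2.14 (SE 1.49; edgeR, adjusted p = 0.645). In TPM, the make-up of the heavy chains was 68.2% Myh4 and 7.51% Myh7 in KO3, and 24.3% Myh4 and 53.5% Myh7 in WT1. WT3 resembled the KO libraries, with 64.2% Myh4 and 3.59% Myh7.

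The light chains sit on the neck of each myosin head. The fast regulatory chain Mylpf had 269, 1134 and 6565 reads in KO and 1081, 2084, 1546 and 2326 in WT. Myl1, the fast essential chain, had 41, 668 and 5455 in KO and 721, 1473, 1214 and 1593 in WT. For both, KO3 was highest and KO1 lowest of all libraries, and the WT libraries stayed within 1.97-fold of each other. The slow regulatory chain Myl2 had 18, 35 and 839 reads in KO and 1030, 981, 91 and 1382 in WT. Myl3, the slow essential chain, had 6, 24 and 716 in KO and 928, 667, 42 and 1322 in WT. In both slow chains, as in Myh7, WT3 lay far below the other WT libraries. Log2 fold changes were 0.49 for Mylpf, 0.61 for Myl1, -1.68 for Myl2 and -1.70 for Myl3, with SE between 0.81 and 1.37.

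The troponins carry the calcium switch, with subunit C binding calcium, I blocking the filament and T tying the complex to tropomyosin. The fast subunits were among the most abundant muscle genes. Tnnt3 had 169, 2289 and 18463 reads in KO and 2807, 5939, 3661 and 5832 in WT. Tnnc2 had 67, 990 and 8317 in KO and 1332, 2464, 1640 and 2544 in WT, and Tnni2 had 73, 780 and 6164 in KO and 1000, 2035, 1366 and 1923 in WT. All 3 had KO1 lowest and KO3 highest, and log2 fold changes from 0.46 to 0.54.

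Of the slow subunits, Tnnc1 had the smallest p of all 35 genes. Tnnc1 had 16, 7 and 262 reads in KO and 544, 466, 36 and 819 in WT. KO1 and KO2 lay below all WT libraries, but WT3 lay below KO3. The log2 fold change was -2.41 (SE 1.19, unadjusted p = 0.0771, adjusted p = 0.498, edgeR). Tnni1 had 5, 8 and 293 reads in KO and 476, 381, 26 and 710 in WT, and Tnnt1 had 114, 136 and 786 in KO and 1157, 982, 205 and 1630 in WT. Tnnt1 kept more than 100 reads in KO1, where Tnni1 and Tnnc1 were nearly absent, and its KO3 to KO1 ratio of 6.65 was the smallest of all.

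Myosin-binding protein C braces the thick filament. The slow form Mybpc1 had 13, 265 and 1917 reads in KO and 674, 1177, 328 and 1024 in WT. It was the slow gene for which KO3, not WT4, was highest, and KO2 held 265 of its reads, where the other slow genes held 7 to 136. Its log2 fold change of -0.24 (SE 1.05) was the nearest to 0 of the 7. The fast form Mybpc2 had 48, 480 and 3881 reads in KO and 377, 680, 703 and 1222 in WT, with KO over WT at 0.88 on the log2 scale (SE 1.02).

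Genes of the thin filament and scaffold that both fibre kinds use had KO1 lowest and KO3 highest of all libraries, as the fast genes had. Their lowest WT library was WT3, as for the slow genes, whereas it was WT1 for 11 of 12 fast genes. Acta1, skeletal actin and the most abundant of the 35 with a mean of 447 TPM, had 207, 4224 and 38500 reads in KO and 7590, 14729, 7552 and 15723 in WT. KO1 lay far below, KO3 far above the WT libraries, and the log2 fold change was 0.22 (SE 1.15). Tpm2, a tropomyosin, and Neb, the giant ruler of the thin filament, had log2 fold changes of -0.13 and 0.24. Of the scaffold genes, Tcap, which caps titin at the Z-disc, was highest with a mean of 64.7 TPM, at 0.986, 17.5 and 112 CPM in KO and 49.7, 56.6, 24.96 and 69.1 CPM in WT. The fast Z-disc gene Actn3 had the highest log2 fold change of all 35, at 1.11 (SE 1.07, adjusted p = 0.759, edgeR), while Actn2, its partner in all fibres, had -0.68 (SE 1.06). Ttn, the elastic spring, Ldb3, a Z-disc adaptor, and Des, the intermediate filament of muscle, lay between -0.20 and 0.06.

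Of the calcium genes, Atp2a1, the pump of fast fibres, was the highest by mean TPM (99.8). It measured 10.5, 149 and 1179 CPM in KO and 163, 371, 240 and 397 CPM in WT, with a log2 fold change of 0.61 (SE 1.09). Pvalb, the calcium buffer of fast fibres, Casq1, which stores calcium, and Ryr1, the release channel, had 0.96, 0.79 and 0.20, so that all 4 calcium genes lay above 0, though all 4 lay below 0 in 5 of 16 alternatives. Among the energy genes, Ckm, muscle creatine kinase, was highest with a mean of 214 TPM, at 5.96, 96.1 and 833 CPM in KO and 125, 240, 177 and 301 CPM in WT, with a log2 fold change of 0.56 (SE 1.11). Mb, the oxygen store myoglobin, had the widest KO range, from 0.376 CPM in KO1 to 204 CPM in KO3, and a log2 fold change of -0.49 (SE 1.19). Eno3, muscle enolase, Pygm, glycogen phosphorylase, and Ampd1, AMP deaminase, had 0.44, 0.53 and 0.67, and Cox6a2, a muscle subunit of cytochrome oxidase, had -0.35.

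Fast and slow genes were ordered differently across the libraries. The 12 fast genes summed to 62.9, 722 and 5490 CPM in KO and to 824, 1675, 1156 and 1758 CPM in WT. The 7 slow genes summed to 8.45, 23.4 and 279 CPM in KO and to 365, 314, 42.5 and 492 CPM in WT. The highest WT library was 2.13 times the lowest for fast genes and 11.6 times for slow genes. WT3 was the lowest WT library for 7 of 7 slow genes, whereas WT1 was the lowest for 11 of 12 fast genes. The median log2 fold change was 0.57 for the fast genes, from -0.52 to 1.11, and -1.70 for the slow genes, from -2.41 to -0.24, and the fast median turned to below 0 in 5 of 16 alternatives. The 16 genes of both kinds had a median of 0.13, and WT3 was the lowest WT library for 11 of them.

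**Figure D3:**
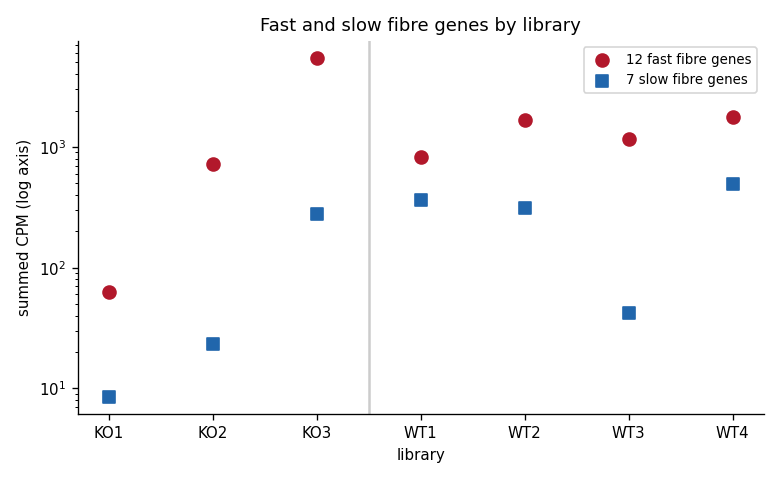
Summed CPM (log axis) of the 12 fast and the 7 slow fibre genes in each library. The fast sum runs from 62.9 in KO1 to 5490 in KO3 with WT between, while the slow sum is highest in WT4 (492) and drops to 42.5 in WT3.

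As a share of the TPM of fast plus slow genes, the slow genes made up 16.3, 3.71 and 5.67% in KO1 to KO3 and 34.998, 19.2, 4.18 and 26.4% in WT1 to WT4. The mean was 8.55 ± 6.77% (SD, n = 3) in KO and 21.2 ± 13.0% (SD, n = 4) in WT, and the groups overlapped, since WT3 lay below KO1 and KO3. Without the heavy chains the shares were 16.7, 3.90 and 5.56% in KO and 33.8, 18.7, 4.21 and 25.3% in WT, which left the order of the libraries the same. In all 7 isoform families the slow share was higher in WT1, WT2 and WT4 than in KO2, KO3 and WT3, a split seen in the values and not tested. KO1 lay above WT2 in troponin C (18.8% against 15.6%) and above all WT libraries in troponin T. For troponin I it was 21.4, 9.55 and 17.2% in WT1, WT2 and WT4, and 0.558, 2.60 and 1.06% in KO2, KO3 and WT3. In myosin-binding protein C the gap was small, and the slow form Mybpc1 was 45.1% in KO2 and 44.0% in WT3, not far below the 53.6% of WT4.

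**Figure D4:**
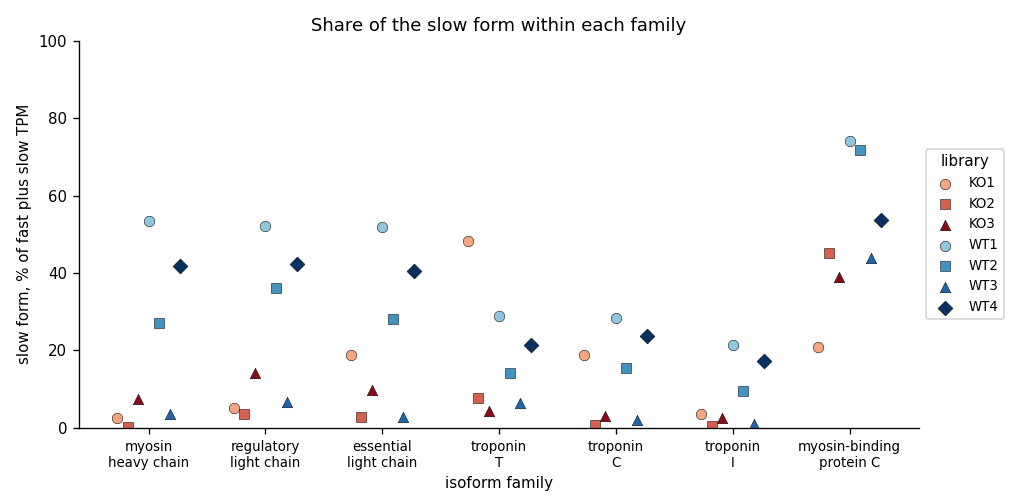
Share of the slow form in the TPM of the fast plus slow forms of each isoform family, 1 point per library. WT1, WT2 and WT4 lie above KO2, KO3 and WT3 in all 7 families, by little in myosin-binding protein C, where KO2 is at 45.1% and WT4 at 53.6%, and KO1 stands out in troponin T at 48.4%.

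The high troponin T share of KO1 came from particular transcripts of Tnnt1. These and the other transcripts described here were picked after their values had been seen. Tnnt1-206, Tnnt1-211 and Tnnt1-212 together had 111, 127 and 109 reads in KO and 95.3, 107, 105 and 112 in WT, which is nearly level in all 7 libraries. The transcripts Tnnt1-201 and Tnnt1-203 had 3.46, 9.03 and 619 reads in KO and 998, 794, 95.3 and 1439 in WT, the order of the other slow genes. The level transcripts were 97.0% of all Tnnt1 reads in KO1 and 6.86% in WT4.

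Mylpf showed the same contrast. Its main transcript Mylpf-201, which starts at chr7:127211608 on GRCm38, ran from 58.1 reads in KO1 to 6432 in KO3. Mylpf-205 and Mylpf-206 start upstream, at 127208890 and 127208899, and together had 211, 186 and 132 reads in KO and 153, 196, 200 and 145 in WT. They were 78.4% of the Mylpf reads of KO1 and 2.01% of those of KO3. For Tpm2, both transcripts varied, but Tpm2-203 spanned a smaller range, with 681 reads in KO1 and 3474 in KO3, than Tpm2-202, with 82.5 and 6054. Eno3-206 had 134, 147 and 197 reads in KO and 195, 263, 130 and 0 in WT, level in all libraries but WT4. Of 53 member transcripts with at least 100 reads in all and more than 3 in KO1, 6 had a KO3 to KO1 ratio under 2, and the median ratio was 82.7.

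**Figure D5:**
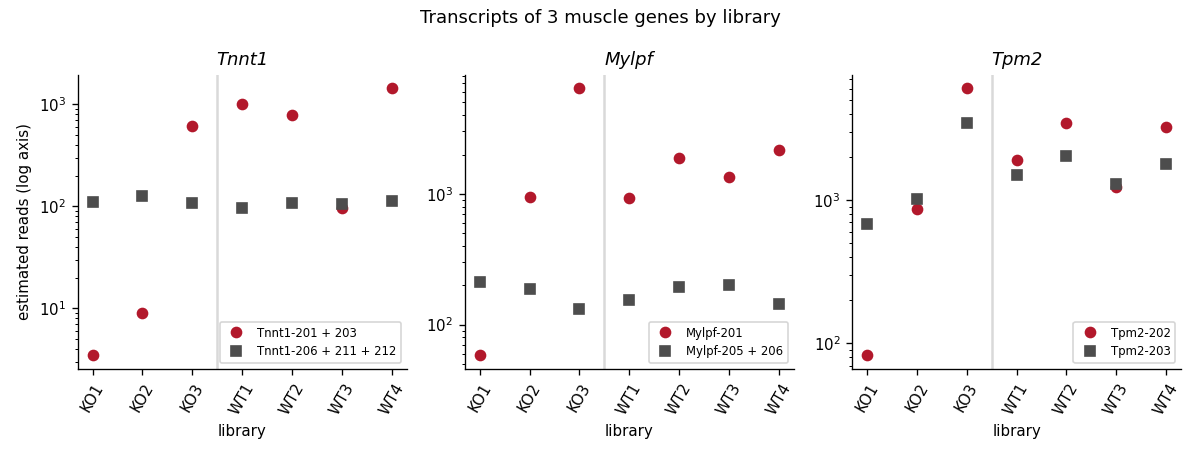
Estimated reads (log axis) of transcript groups of Tnnt1, Mylpf and Tpm2 in each library. The grey groups of Tnnt1 (3 transcripts, 95.3 to 127 reads) and Mylpf (2 transcripts, 132 to 211 reads) are nearly level, while the red transcripts span the range of the other muscle genes, and Tpm2-203 lies between these patterns.

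One more transcript touched the slow share. Myh7-206, a short retained-intron transcript, held 6.28% of the Myh7 reads in KO3 and 6.90% in WT4 but 52.5% and 56.5% of the Myh7 TPM there, because TPM divides by length. By reads, Myh7 was therefore 33.8% of the heavy chains in WT1, not 53.5%. With Myh7-206 and the level transcripts of Tnnt1 and Mylpf left out, an alternative added after seeing the data, the slow share was 9.86, 2.07 and 5.26% in KO and 33.9, 18.2, 3.23 and 25.1% in WT, with the groups still overlapping through WT3. Tnni2-203, a transcript of a fast gene with a KO3 to KO1 ratio of 1.93, was kept in. It had 11.9 reads in KO1 and 23.9 in KO3. The spans of 20 members, introns included, overlap a gene on the opposite strand, such as Nisch over Tnnc1, Ube2c over Tnnc2 and Pth1r over Myl3. Where exons overlap, which was not checked, their reads may include those of the other gene. No source used here gives the strand setting of the counting.

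The muscle genes were among the most variable genes of the table. Their pooled SD within groups, on log2(CPM + 0.5), had a median of 2.04 and ran from 1.15 for Cox6a2 to 2.67 for Myh7, against a median of 0.155 over all genes tested. Of the 35, 32 were among the 143 genes that make up the top 1% of spread, which starts at 1.37. The 3 below were Tpm2, Eno3 and Cox6a2. The members were chosen with earlier results of these data known, so their place among the most variable genes is a description and not independent support.

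Other muscle genes, 77 named from knowledge of muscle with earlier results of these data known, were also lowest in KO1 and highest in KO3 as a sum. Of these, 70 were tested, 0 passed and 0 had an unadjusted p under 0.05 (edgeR; DESeq2 also called 0), with a median log2 fold change of 0.01. They held 11728, 19226 and 72463 reads in KO and 23054 to 36487 in WT. The most abundant are also used outside muscle and ranged less: Tpm1, a tropomyosin, had 4704, 6262 and 18076 reads in KO and 6263 to 8487 in WT, Myom1 of the M-band had 1137, 1228 and 2772 in KO and 1350 to 1914 in WT, and Adssl1 of purine synthesis had 1425, 1570 and 2498 in KO and 1052 to 1693 in WT. Myoz1, a Z-disc gene of fast fibres, spanned 10, 180 and 1502 reads in KO and 142 to 406 in WT, as wide as the fast members. Of the excitation genes, Jsrp1, Cacna1s, the voltage sensor of the muscle membrane, and Hrc, a calcium-binding protein of the reticulum, had 2, 38 and 18 reads in KO1 and 400, 1077 and 821 in KO3. Car3, the carbonic anhydrase of muscle and fat, had 357 and 3561, and the glycolysis gene Pfkm 1491 and 4159. Of the regulators, Ankrd23 had 116 and 3949, Mef2c, a factor that blood cells use too, 1023 and 1898, and the protease Capn3 219 and 428.

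Without KO3, 4 of 71 other muscle genes passed the test lower in KO, against 0.125% of all genes (edgeR). They were Ankrd2 (log2 fold change -4.50, adjusted p = 0.0169), Csrp3 (-3.19, adjusted p = 0.0109), Myom3 (-4.29, adjusted p = 0.0200) and Xirp1 (-3.48, adjusted p = 0.0492). In limma-voom with sample weights on all libraries, Csrp3 and Ankrd2 passed, at -2.59 and -3.71, against 0.857% of all genes. With all libraries in edgeR, Ankrd2, a stretch-responsive gene of slow fibres, had 5, 16 and 172 reads in KO and 229, 280, 143 and 270 in WT, with KO3 above WT3.

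Most genes nearest to the muscle profile were on the list of other muscle genes. Among 13175 other genes that averaged 1 CPM or more, the 10 with the smallest root mean square distance over the 7 libraries were Myom2, Hfe2, Jph2, Pgam2, Cmya5, Eef1a2, Myot, Jsrp1, Nrap and Flnc, at distances of 0.13 to 0.29 on the log2 scale. The members themselves lay at a median of 0.53, from 0.13 for Neb to 1.94 for Myh7, and all candidates at a median of 1.69. Of the 10, 9 were on the list of other muscle genes, and of the nearest 30, 20, whereas 70 of the 14238 genes tested were on it. That list was chosen with earlier results of these data known, so the overlap is not independent support. Hfe2, haemojuvelin, an iron regulator made in muscle and liver, was on no list and had 6, 93 and 578 reads in KO and 136, 254, 136 and 281 in WT.

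Markers of heart, satellite cells, smooth muscle and tendon were low and, over all 7 libraries, ranged less than the muscle genes, although within WT the tendon list spanned 2.19-fold. Of 8 heart genes, Nppa, Nppb and Myl7 had 0 reads in all 7 libraries, and the list summed to 2.69 ± 0.76 CPM in KO and 2.71 ± 0.48 CPM in WT, with Tnni3 its highest at 22 to 41 reads. Of 5 satellite cell genes, the muscle stem cell factor Pax7 had 1 to 3 reads in each library, and the list summed to 2.21 to 5.29 CPM in KO and 3.25 to 4.88 CPM in WT, most of it Cdh15. The 7 smooth muscle genes summed to 62.9 to 86.6 CPM in KO and 62.3 to 72.1 CPM in WT, with Smtn highest and Myocd at 1 read in KO3 and 0 elsewhere. The 6 tendon genes summed to 9.72, 19.7 and 31.4 CPM in KO and to 11.5 to 25.2 CPM in WT, in the KO order of the muscle genes. Of these, Comp was highest, and Fmod had 18, 107 and 177 reads in KO and 15 in WT3 against 126 to 142 in the other WT libraries. Their part in the muscle result was not tested.

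Over all 7 libraries, the summed lists of other tissues also ranged less than the summed muscle genes, but within WT the cartilage and brown fat lists spanned 2.47-fold and 2.31-fold, against 1.92-fold for the 35. The 6 bone genes, of which Col1a1 was highest by CPM and Bglap by TPM, summed to 1357 to 1515 CPM in KO and 1524 to 2884 CPM in WT, and the 4 cartilage genes, led by Col2a1, to 94.1 to 118 and 96.5 to 238 CPM. The 5 Schwann cell genes, led by Mbp, which blood cells also express, lay between 88.6 and 108 CPM in all libraries, and the 6 white fat genes, led by Adipoq, between 44.6 and 63.96 CPM. Adipoq made up most of the white fat sum, and Col2a1 nearly all of the cartilage sum. The white fat gene Cfd alone spanned 10.6-fold, from 1.11 CPM in KO2 to 11.7 CPM in WT1. The 4 brown fat genes, with Ppargc1a highest by CPM, summed to 0.0939, 0.192 and 1.27 CPM in KO and 0.533 to 1.23 CPM in WT, and the 4 skin genes, with Krt10 highest and Krt14 at 0 throughout, to less than 1 CPM. Marrow genes, led by the haemoglobin gene Hbb-bs, were abundant in every library.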

How the data were processed

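The members and all gene lists were chosen with earlier results of these data known. FastQC 0.11.9, Salmon 1.7.0, DESeq2 and the build GRCm38.p6 are named by the submitters' processing notes. The authors deposited, per transcript, estimated counts that need not be whole and TPM values scaled for length and library total. How Salmon was run and with which annotation is not given in the sources used here.

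Transcripts were joined to genes of GENCODE M21. The 569 without a gene held at most 0.0662% of a library's reads and were left out. Per gene, estimated counts were added up and rounded, genes with few reads were removed (edgeR filterByExpr), and KO was tested against WT with TMM scaling (factors 0.918 to 1.06) and edgeR's quasi-likelihood test (edgeR 4.0.16, limma 3.58.1, DESeq2 1.42.0, R 4.3.3). P-values were two-sided and adjusted by Benjamini-Hochberg over all genes. Levels are CPM on the TMM-scaled library size, or the deposited TPM where genes are compared. Log2 profiles used log2(CPM + 0.5). Coding sequences were aligned with mafft 7.526.

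On simulated counts for this comparison (14104 genes in the fit), 69.7% of 99 genes changed 2-fold and 89% of 100 changed 4-fold were recovered, and 6.51% of 169 calls were false. The changed genes were drawn at random from all genes tested, whose median SD within groups was 0.155 on the log2 scale. For the members that median was 2.04, so these rates do not apply to the muscle genes.

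Values per library are given for the isoform families, for the genes highest by mean TPM of each other role and for the gene with the smallest p. Outside the 35, the 10 nearest profiles, the 3 highest genes of each other muscle list and the highest gene of each marker list are named. Others named in addition were chosen after their values were seen. Alternatives were RLE scaling, TMM without muscle genes, other filters, DESeq2, limma-voom with sample weights, limma on log2(TPM + 0.1) and log2(TPM + 1), a replicate block and each library left out.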

Additional observations from a re-analysis of the deposited data

How the results depend on the processing

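The count of 0 members called stood in all 16 alternatives, with smallest adjusted p-values from 0.102 to 0.759. The median log2 fold change of the 35 members, 0.22, turned to -1.67 with voom weights, to -1.17 and -0.96 with limma on log2(TPM + 0.1) and log2(TPM + 1), and ran from -1.996 (without KO3) to 0.80 when 1 library was left out. The fast median turned to -1.49, -0.87 and -0.72 in the same fits and ran from -1.78 to 1.15. The voom and limma fits compare means of log2 values, whereas edgeR models the counts. A low library such as KO1 counts for more in a mean of log2 values than in a mean of counts. For Acta1 the mean was 652 CPM in KO and 560 CPM in WT, with 9.72 CPM in KO1 and 1742 CPM in KO3. The sign of these medians thus depended on the fit, and the part of the scale in this was not tested. In the order voom, TPM + 0.1 and TPM + 1, Myh4 turned to -1.17, -0.48 and -0.34, Acta1 to -2.12, -1.67 and -1.62, Actn3 to -1.29, -0.43 and -0.28, and Tnnc2 to -1.67, -1.17 and -1.11. Without KO3 they were -1.51, -2.41, -1.69 and -1.96. With 1 library left out, the highest values were 1.64 for Myh4, 0.80 for Acta1, 1.68 for Actn3 and 1.11 for Tnnc2. Without KO1, Myh2 turned to 0.055 and Mb to 0.094; without KO3 they were -2.85 and -2.73.

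The slow median ran from -5.40 (without KO3) to -1.23, the log2 ratio of the summed level, 0.29, from -2.06 (without KO3) to 0.86, and the fast share difference, 12.6 percentage points higher in KO, from 8.03 to 18.3. All 7 slow genes stayed below 0 in every alternative but those without KO1 or KO2, in which Mybpc1 was at 0.33 and 0.15. Other muscle genes called were 2 with voom and 0 to 4 with 1 library left out. All genes called were 405 with DESeq2, 305 with voom and 49 and 50 with limma on TPM, which moved the median of all genes to 0.13 and 0.10, and 17 to 65 with 1 library left out.

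For the pairing of replicate numbers, same-numbered KO and WT libraries had correlated deviations of 0.12, -0.04 and -0.27, so the numbers were not taken to pair the libraries. A replicate block gave 21 calls over all genes, 0 members called and medians of -1.12 for the members and -0.85 for the fast genes, with Myh4 at -0.44, Acta1 at -1.69, Actn3 at -0.37 and Tnnc2 at -1.12. WT4 was alone in its block, so it did not bear on the difference of KO and WT in that fit.

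With 3 KO libraries that span 61.6-fold, the precision for these genes is set by the spread between libraries and not by depth, except for slow genes in KO1 and KO2, many of which have under 20 reads. Intervals cover differences of several-fold. No library was called an outlier in the WT group by Dixon's test on CPM in 39 tests, and the KO group was not tested. With 4 libraries and values not on a log scale, the test is weak for a library that is low by fold. Myh7 in WT3 was not flagged, at 7.17 CPM against 88.2 to 163 CPM in the other WT libraries.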

Other observations

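Some muscle genes outside the 35, named after their values were seen, were low in WT3 like the slow genes. Myoz2, a Z-disc gene of slow fibres and heart, had 3, 24 and 306 reads in KO1 to KO3 and 271, 298, 57 and 340 in WT1 to WT4. Casq2, the calcium store of slow fibres and heart, had 4, 17 and 70 in KO and 88, 96, 13 and 119 in WT. Sln, which restrains the calcium pump, had 2, 0 and 14 in KO and 18, 9, 2 and 50 in WT. In all 3, WT3 was the lowest and WT4 the highest WT library, as for 6 of the 7 slow members. None passed the test in edgeR (adjusted p 0.722 for Myoz2, 0.581 for Casq2 and 0.575 for Sln), and their KO and WT libraries overlapped.

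Developmental myosin heavy chains and myogenic factors had few reads, at most 41 in a library. Myh3, the embryonic myosin heavy chain, was counted at 3 to 18 reads in KO against 8 to 35 in WT, and Myh8, the perinatal form, 2 to 7 and 7 to 15. The myogenic factors Myod1 and Myf6 had 0, 2 and 21 and 0, 4 and 41 reads in KO1 to KO3, against 2 to 8 and 11 to 26 in WT. Myog had at most 4 reads in any library. Myh8, Myod1 and Myog were too low to be tested. Actc1, cardiac actin, did not share the order of the slow genes, with 187 reads in WT4 and 4 to 59 in the other 6 libraries.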
